A study of Mus musculus with 352 samples.

Results

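The genes of the proteasome were followed in mouse tibialis anterior, a shin muscle made up mainly of fast fibres. The set holds each row of the deposited expression table whose Ensembl identifier maps to a protein-coding symbol that begins with Psma, Psmb, Psmc, Psmd, Psme, Psmf or Psmg in the GENCODE M21 annotation. These were 48 of the 14413 genes in the table. The annotation has 50 such symbols, and Psma8 and Psmb11 were not analysed here. Of the 48 genes, 45 had a mean of at least 0 log2 FPKM (1 fragment per kilobase of exon and mega-read) over all mice and entered the tests. Psmb9, Psmg3 and Psmc3ip lay below that mean and are described by level only. Psmc3ip shares the symbol's first letters but encodes a recombination cofactor and is not a proteasome subunit.

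RNA was sequenced from muscle of 352 C57BL/6 mice of both sexes in 15 groups of 22 to 25 animals, 1 library per mouse, with 3 to 5 mice at each of 6 times of day, every 4 h and given as zeitgeber time (ZT), the hours since lights went on. KO mice carried Bmal1(stopFL/stopFL), an allele of the clock gene Bmal1 whose floxed stop cassette blocks it in every tissue, and no Cre. The same allele was present with Hsa-Cre, driven by the skeletal actin promoter in muscle fibres (Mu-RE, Bmal1 returned to muscle), with Syt10-Cre, active in brain including the central clock (Br-RE), or with both (RE-RE). WT mice had intact Bmal1. On food ad libitum (ALF) there were 23 KO, 25 Mu-RE, 24 RE-RE, 23 Br-RE and 23 WT mice of 10 to 12 weeks, called 10 weeks here. At 26 weeks on ALF there were 24 KO, 24 Mu-RE, 24 RE-RE, 22 Br-RE and 22 WT mice. Time-restricted feeding (TRF) was given to 23 KO, 23 Mu-RE and 24 WT mice of 26 weeks. Wild-type animals aged 85 to 116 weeks, called old, numbered 24 on TRF and 24 on ALF. Groups named without a schedule were on ALF.

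The proteasome is the protease that degrades proteins tagged with ubiquitin. Its 20S core is a barrel of outer rings of alpha subunits (Psma genes), which form the gate, and inner rings of beta subunits (Psmb genes), of which Psmb5, Psmb6 and Psmb7 carry the proteolytic sites. The 19S regulatory particle caps the core to give the 26S proteasome: its ATPases (Psmc genes) unfold the substrate and open the gate, and its non-ATPase subunits (most Psmd genes) bind and remove ubiquitin. In immune cells and under interferon, Psmb8, Psmb9 and Psmb10 replace the standard proteolytic subunits. In skeletal muscle the ubiquitin-proteasome system is known for the breakdown of contractile proteins during disuse and fasting.

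Depth, estimated from the steps between low values, was 14.5 to 47.4 mega-reads per library (median 22.2). Muscle identity genes were high (mean log2 FPKM 13.08 for Ckm, 13.99 for Acta1, 11.85 for Mb), and the fast-fibre myosin Myh4 averaged 12.75. Bmal1 itself (symbol Arntl) had a median of 3.73 log2 FPKM in KO mice of 26 weeks and 2.84 in WT mice of 26 weeks. It ran from 3.12 to 4.31 in those KO mice and from 0.99 to 4.05 in those WT mice. The level of the gene was therefore not lower in KO, and a single level per gene cannot tell a full transcript from one that a stop cassette interrupts, so it does not check the genotype. At each age the libraries of RE-RE and Br-RE mice had been centred apart from the rest, so their levels were compared with each other only.

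By role, subunits of the 26S proteasome had higher mean levels than the assembly chaperones and inducible subunits. Single 26S subunits ran from 3.88 log2 FPKM for Psmd11 to 7.39 for Psmb7. The 20S assembly chaperone Psmg2, at 4.03, lay above the lowest of them. On the log2 FPKM scale, which corrects for gene length, the mean over all 352 mice was 6.22 for the 7 beta-ring genes, 5.82 for the 6 ATPases, 5.40 for the 7 alpha-ring genes and 5.21 for the 11 non-ATPases. The highest single levels were 7.39 for Psmb7, 6.63 for Psmb5 and 6.59 for Psmb1, followed by 6.55 for Psmd7 and 6.51 for Psmd8. The activators Psme1 to Psme4, which open the core in place of the 19S particle, averaged 3.99. The chaperones of 20S assembly averaged 2.13, and those of 19S assembly (Psmd5, Psmd9, Psmd10) averaged 1.77.

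The lowest levels belonged to Psmb9 at -0.49, Psmg3 at -0.30, Psmc3ip at -0.19, Psmb8 at 0.36 and Psmf1, a proteasome inhibitor in vitro, at 1.07. Psmb8 and Psmb9 are subunits of the immunoproteasome of immune cells. Of 12 macrophage and lymphoid markers 11 were in the table, with means from -2.94 for the B cell gene Cd79a to 3.70 for the antigen-presentation gene Cd74, and Lyz2 at 3.24, C1qa at 1.18 and C1qb at 1.12. Psme2b is a near copy of the activator gene Psme2, so reads of this pair may have been split between them and both levels are uncertain.

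Across the 11 groups other than RE-RE and Br-RE the members varied within a narrow band. Among the 26S subunits the lowest and highest of the 11 group means lay furthest apart in Psma3, by 0.74 log2 units. Its mean was 4.33 in WT mice on TRF and 5.07 in KO mice on TRF. The mean over the 14 genes of the 20S core ran in order as 6.14 in KO mice on TRF, 5.99 in KO mice of 26 weeks, 5.93 in Mu-RE mice on TRF and 5.89 in WT mice of 26 weeks. The low end of that order was 5.67 in WT mice on TRF, 5.67 in Mu-RE mice of 10 weeks and 5.62 in WT mice of 10 weeks. In the libraries centred apart it was 5.78 in RE-RE and 6.02 in Br-RE mice of 26 weeks, and 5.57 in RE-RE and 5.80 in Br-RE mice of 10 weeks. With an SD over mice of 0.39 in KO mice of 26 weeks and 0.24 in WT mice of 26 weeks, neighbours in this order lay closer than the spread within a group.

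Most 26S subunits varied together from mouse to mouse, and with a technical measure. After the mean of each group and time point was removed, each 26S subunit was correlated over the 352 libraries with the mean of the others: the median r was 0.84, and the median was 0.90 among alpha-ring genes, 0.77 among ATPases and 0.68 among non-ATPases. The non-ATPases that followed the rest least were Psmd1 at 0.02, Psmd11 at 0.04 and Psmd3 at -0.21. The length slope of a library, the slope of its genes' deviations on log2 exon length over all tested genes that are not members, is negative where short transcripts read high. It correlated with the 20S mean at r of -0.87 and with the 19S mean at -0.58 over the same libraries, given as a description since these share depth and normalization. Over the 45 genes the median r with the slope was -0.65, against 0.01 over all genes. The median exon length of the members was 2800 bp, against 4151 bp over all genes. The mean slope of the groups and the counts with the slope as a covariate are therefore given beside the differences in level.

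**Figure D1:**
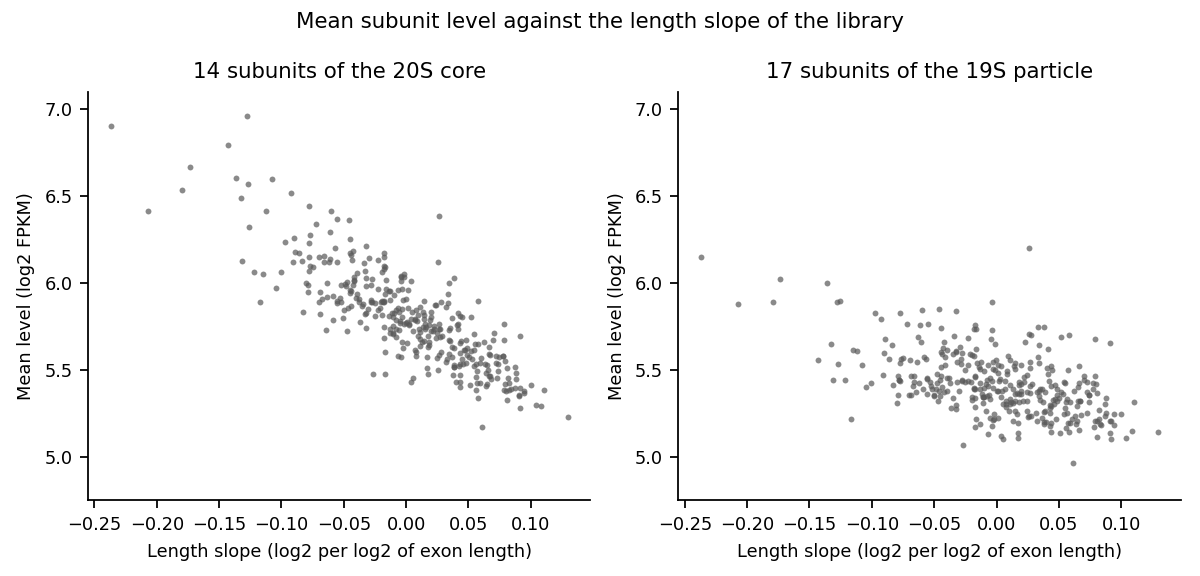
Mean level of the 20S core (left) and 19S particle (right) in log2 FPKM against the length slope of each library (log2 units per doubling of exon length), with 1 point per mouse for 352 mice. The 20S mean falls steeply as the slope rises (r of -0.87 after removal of the means of group and time point) and the 19S mean less so (r of -0.58).

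KO mice, which lack Bmal1 in every tissue, had more RNA for the 19S particle than WT mice. In KO mice of 26 weeks, 16 of the 45 genes were higher and 3 lower than in WT mice, with a median log2 difference of 0.12 over the 45 genes. Among all 9862 tested genes 24.4% were higher and 22% lower in this comparison, so the share of members that were higher was above the background and the share that were lower was under it. By role, 9 of 11 non-ATPases and 5 of 6 ATPases rose (median differences 0.27 and 0.23), while 1 of 7 alpha-ring genes and 0 of 7 beta-ring genes did (medians 0.09 and 0.08). This split belongs to the fit without the length slope. With the slope as a covariate the beta-ring genes Psmb5, Psmb6 and Psmb7 also passed as higher, as given below. The median difference over all tested genes lay between -0.03 and 0.03 in each comparison of level in the text. In whole muscle, a change in the RNA per cell and a change in the share of cells that express a gene cannot be told apart.

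The largest rise at 26 weeks was in Psmd11, a scaffold subunit of the 19S lid (ENSMUSG00000017428, GRCm38 chromosome 11, 80428615 to 80473248, plus strand). Its lowest, median and highest levels were 3.97, 4.23 and 5.47 log2 FPKM in KO mice, against 3.64, 3.78 and 4.56 in WT mice. Most KO mice lay above most WT mice, although the groups overlapped, and the difference was 0.45 (SE 0.07, limma adjusted p = 1.31e-06). Psmd1, a large scaffold of the 19S base, ran 4.47, 4.71 and 5.11 in KO mice and 4.06, 4.30 and 4.62 in WT mice, a difference of 0.41 (SE 0.05, limma adjusted p = 1.72e-09). The ranges overlapped from 4.47, the lowest KO mouse, to 4.62, the highest WT mouse, and each median lay outside the other group's range.

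Psmd14 encodes the deubiquitinase that cuts ubiquitin chains from substrates at the 19S lid (ENSMUSG00000026914, GRCm38 chromosome 2, 61711694 to 61800376, plus strand). It had 3.97, 4.46 and 5.21 log2 FPKM as lowest, median and highest in KO mice of 26 weeks, against 3.79, 4.11 and 4.42 in WT mice, a difference of 0.40 (SE 0.07, limma adjusted p = 1.43e-05). The ATPase Psmc4 (chromosome 7, 28041707 to 28050101, minus strand) had 5.10, 5.48 and 6.15 in KO mice and 4.86, 5.09 and 5.58 in WT mice, a difference of 0.41 (SE 0.07, limma adjusted p = 1.1e-05). The ATPase Psmc1 had 6.24, 6.66 and 7.26 in KO mice and 6.05, 6.40 and 6.66 in WT mice, a difference of 0.34 (SE 0.07, limma adjusted p = 0.00014). The KO median lay above the highest WT mouse for Psmd14, level with it for Psmc1 and just below it for Psmc4, and the groups overlapped.

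The proteolytic core subunits did not pass the test at 26 weeks. The differences were 0.12 (SE 0.11, limma adjusted p = 0.39) for Psmb5, -0.04 (SE 0.13, adjusted p = 0.85) for Psmb6 and 0.06 (SE 0.14, adjusted p = 0.752) for Psmb7. The 3 genes that fell were the immunoproteasome subunit Psmb10 (-0.27, SE 0.11, limma adjusted p = 0.0374), the activator Psme1 (-0.24, SE 0.09, adjusted p = 0.0213) and the 20S assembly chaperone Psmg2 (-0.21, SE 0.09, adjusted p = 0.0408). With the length slope as a covariate, 30 members were higher and 0 lower at 26 weeks: Psmb5, Psmb6 and Psmb7 then passed the test as higher, and the falls of Psmb10, Psme1 and Psmg2 no longer did. The slope averaged -0.0022 in these KO mice and -0.0328 in the WT mice.

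At 10 weeks the same contrast gave 15 genes higher and 1 lower in KO than in WT mice, with a median of 0.11 over the 45 genes. Of all tested genes 20.3% were higher and 21.6% lower. The 19S particle again held most of the rises, 4 of 6 ATPases and 5 of 11 non-ATPases, against 1 of 7 alpha-ring and 1 of 7 beta-ring genes. The length slope averaged 0.0161 in these KO mice and 0.0294 in the WT mice, and with it as a covariate 16 genes were higher and 2 lower. Psma3, a subunit of the alpha ring, had 4.47, 4.85 and 5.29 log2 FPKM as lowest, median and highest in KO mice and 4.09, 4.47 and 4.80 in WT mice, a difference of 0.39 (SE 0.06, limma adjusted p = 1.65e-06). Psmd10, a chaperone of 19S assembly also known as gankyrin, had 2.16, 2.59 and 3.20 in KO mice and 2.06, 2.29 and 2.52 in WT mice, a difference of 0.27 (SE 0.05, limma adjusted p = 7.8e-06). In both genes the KO median lay above the highest WT mouse.

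The ATPase Psmc3 rose by 0.23 (SE 0.04, limma adjusted p = 3.58e-05). Psmg4, a chaperone of 20S assembly, rose by 0.31 (SE 0.13, limma adjusted p = 0.0453). The inducible subunit Psmb8 rose by 0.44 (SE 0.15, limma adjusted p = 0.0146), with -0.57, 0.56 and 1.69 in KO mice and -1.13, 0.15 and 1.04 in WT mice. Its partner Psmb9, which was not tested, had a median of -0.29 in KO and -0.68 in WT mice, and Psmb10 differed by -0.18 (SE 0.08, limma adjusted p = 0.0805). The activator Psme1 was higher by 0.21 (SE 0.05, limma adjusted p = 0.000565). Psmb5, Psmb6 and Psmb7 differed by 0.11, 0.18 and 0.17 and did not pass the test.

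Psmd8, a subunit of the 19S lid, was the exception at 10 weeks. It had 5.44, 6.08 and 6.61 log2 FPKM in KO mice, against 6.04, 6.46 and 7.70 in WT mice, a difference of -0.43 (SE 0.09, limma adjusted p = 0.000124). At 26 weeks its KO and WT levels differed by 0.06 (SE 0.11, limma adjusted p = 0.698).

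The KO effect itself was tested for a difference between the ages, 26 weeks minus 10 weeks. It differed upward in 6 members and downward in 1, where 10.6% of all genes differed upward and 8.17% downward. The gaps were 0.54 (SE 0.13, limma adjusted p = 0.000921) for Psmd11, 0.49 (SE 0.14, adjusted p = 0.00776) for Psmd8, 0.26 (adjusted p = 0.00327) for Psmd1, 0.24 (adjusted p = 0.0287) for Psmc4 and 0.22 (adjusted p = 0.0245) for the base scaffold Psmd2. Psme1 went the other way, at -0.45 (SE 0.10, limma adjusted p = 0.000577). Psmd11 at 10 weeks includes 1 WT mouse at 5.88 log2 FPKM, far above the WT median of 3.83. When 1 mouse of each time point was left out in turn, the gap of Psmd11 stayed between 0.44 and 0.66, while that of Psmd8 was 0.30 without mouse 3 and was no longer called. When the length slope was added as a covariate, this KO effect differed upward in 13 members and downward in 1.

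Markers of other cell types also moved between these groups. The 11 macrophage and lymphoid markers that the table holds had summed levels of 12.3 to 46.9 FPKM (median 24.8) in KO mice of 26 weeks and 22.8 to 65.6 (median 44.9) in WT mice of 26 weeks. At 10 weeks they summed to a median of 29.8 FPKM in KO mice and 54.1 in WT mice. The 5 endothelial markers summed to a median of 61.3 FPKM in KO and 37.7 in WT mice of 26 weeks. The 7 markers of slow and IIA fibres summed to a median of 434.5 FPKM in KO and 215.9 in WT mice of 26 weeks. Of these 7, Myh2, the type IIA myosin, had the highest mean at 7.69 log2 FPKM, followed by Myl3 at 5.23. Their sum therefore rests mainly on Myh2 and does not stand for slow fibres alone. At 10 weeks the markers of slow and IIA fibres went the other way, with a median of 145.1 FPKM in KO and 261.1 in WT mice. The 4 fibroblast markers summed to a median of 55.2 FPKM in KO and 102.4 in WT mice of 26 weeks. Their part in the differences of the proteasome genes was not tested.

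**Figure D2:**
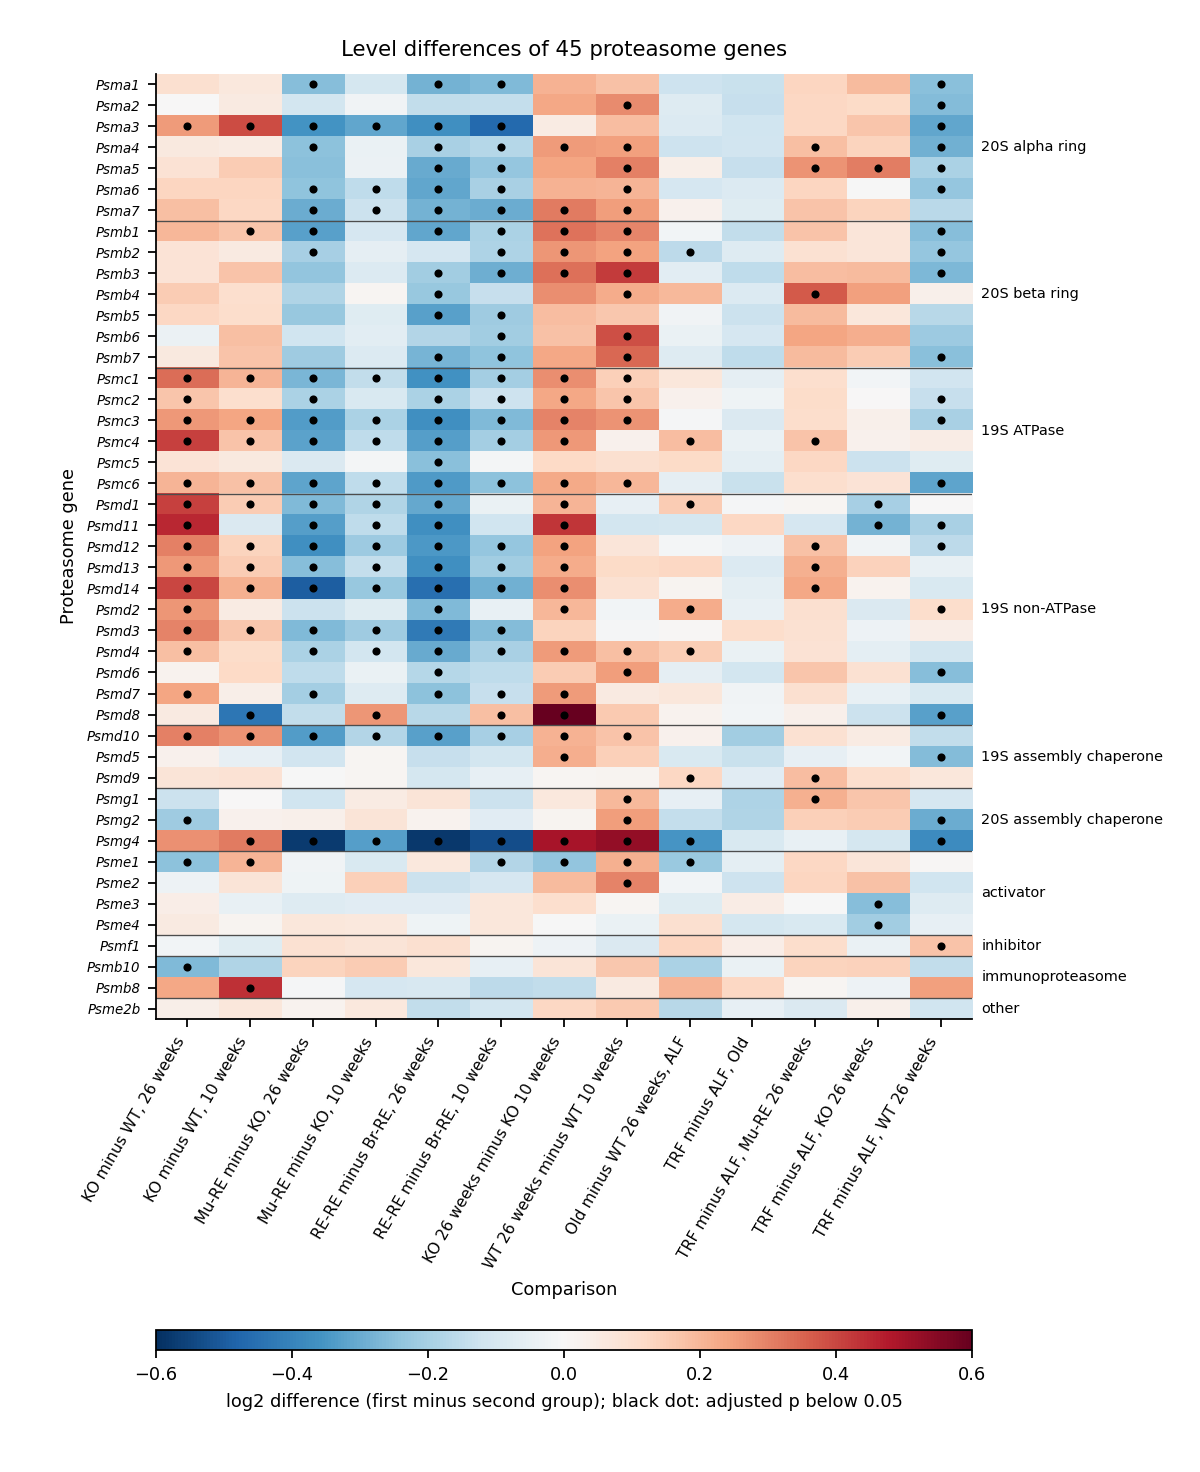
Log2 difference in level (first group minus second) of 45 proteasome genes, in rows by role, in 13 comparisons, with black dots where the limma adjusted p is under 0.05 and colours that saturate at the ends of the scale. In these fits, made without the length slope, most called rises in KO mice of 26 weeks stand in the rows of the 19S particle. The Mu-RE minus KO and RE-RE minus Br-RE columns are blue over most rows down to Psmd14.

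Mice with Bmal1 returned to muscle had lower levels of many members, in the absence of brain Bmal1 (Mu-RE against KO) and in its presence (RE-RE against Br-RE). In Mu-RE mice of 26 weeks 22 of the 45 genes were lower and 0 higher than in KO mice (median difference -0.20), where 16.6% of all genes were lower and 17.3% higher. At 10 weeks 16 were lower and 1 higher (median -0.08), against 17.2% lower and 17.4% higher over all genes. In RE-RE mice of 26 weeks 29 genes were lower and 0 higher than in Br-RE mice (median -0.25), where 18.9% of all genes were lower and 16.5% higher. At 10 weeks 26 were lower and 1 higher (median -0.17), against 17.4% lower and 14.8% higher over all genes. The KO mice that stand against Mu-RE here are those that stood against WT above, so the fall in the first and the rise in the second are not independent.

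Lower genes were found in every part of the 26S proteasome in RE-RE mice. At 26 weeks 6 of 7 alpha-ring genes, 5 of 7 beta-ring genes, 6 of 6 ATPases and 10 of 11 non-ATPases were lower than in Br-RE mice, with median differences of -0.28, -0.23, -0.34 and -0.31. At 10 weeks the counts in that order were 6, 6, 5 and 6. In Mu-RE against KO mice the counts were 5, 2, 5 and 8 at 26 weeks and 3, 0, 4 and 7 at 10 weeks. The mean length slope was -0.012 in RE-RE and -0.011 in Br-RE mice of 26 weeks. At 10 weeks it was 0.0312 in RE-RE and 0.0019 in Br-RE mice, and with the slope as a covariate 15 genes were lower there in place of 26. With that covariate 34 were lower in RE-RE mice of 26 weeks, 26 in Mu-RE mice of 26 weeks and 24 in Mu-RE mice of 10 weeks. The slope averaged 0.012 in Mu-RE and -0.0022 in KO mice of 26 weeks, and 0.006 in Mu-RE and 0.0161 in KO mice of 10 weeks.

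Psmd14 was among the called genes in all 4 comparisons. Its lowest, median and highest levels were 3.67, 4.00 and 4.44 log2 FPKM in Mu-RE mice of 26 weeks, against 3.97, 4.46 and 5.21 in KO mice, a difference of -0.50 (SE 0.07, limma adjusted p = 2.66e-07). They were 3.68, 4.02 and 4.49 in RE-RE mice of 26 weeks, against 4.14, 4.45 and 5.06 in Br-RE mice, a difference of -0.45 (SE 0.06, limma adjusted p = 6.75e-08). In both comparisons the median mouse with muscle Bmal1 lay below or near the lowest mouse without it, and the ranges overlapped. At 10 weeks the differences were -0.23 (SE 0.05, limma adjusted p = 0.000909) between Mu-RE and KO and -0.29 (SE 0.06, adjusted p = 7.27e-05) between RE-RE and Br-RE mice.

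Psmg4, which helps to build the alpha ring (ENSMUSG00000071451, GRCm38 chromosome 13, 34162964 to 34178173, plus strand), had the largest fall of any member in all 4 comparisons. It fell by 0.58 (SE 0.13, limma adjusted p = 0.000317) in Mu-RE mice of 26 weeks, with 1.53, 2.38 and 3.04 in Mu-RE and 2.15, 2.82 and 4.49 in KO mice. In RE-RE mice of 26 weeks it also fell by 0.58 (SE 0.10, limma adjusted p = 6.14e-06), with 1.53, 2.32 and 3.10 in RE-RE and 2.1, 2.90 and 3.40 in Br-RE mice. At 10 weeks it fell by 0.33 in Mu-RE against KO mice and by 0.53 in RE-RE against Br-RE mice. Psmg4 is a short gene of 555 exonic bases at a low level, so fewer reads stand behind these values than behind those of the subunits.

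Psma3 fell by 0.47 (SE 0.07, limma adjusted p = 1.06e-06) in RE-RE against Br-RE mice of 10 weeks, with 3.99, 4.35 and 5.14 in RE-RE and 4.45, 4.80 and 5.51 in Br-RE mice. The lid subunit Psmd12 had 5.03, 5.23 and 5.46 in Mu-RE mice of 26 weeks, against 5.34, 5.56 and 6.08 in KO mice, a difference of -0.37 (SE 0.05, limma adjusted p = 4.05e-08). The lid subunit Psmd3 had 3.53, 4.30 and 4.73 in RE-RE mice of 26 weeks, against 4.35, 4.66 and 4.99 in Br-RE mice, a difference of -0.42 (SE 0.07, limma adjusted p = 3.03e-06). For Psmd12 each median lay outside the other group's range. Psmb5, the subunit with the chymotrypsin-like site, had 6.05, 6.57 and 7.19 in RE-RE mice of 26 weeks and 6.49, 6.83 and 7.55 in Br-RE mice, a difference of -0.33 (SE 0.07, limma adjusted p = 0.000365). In Mu-RE against KO mice of 26 weeks Psmb5 differed by -0.23 (SE 0.12, limma adjusted p = 0.127).

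Psmd8 again stood apart at 10 weeks. It was the 1 member higher in Mu-RE than in KO mice (0.26, SE 0.07, limma adjusted p = 0.00155) and the 1 member higher in RE-RE than in Br-RE mice (0.18, SE 0.07, adjusted p = 0.0379).

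The lists of lower genes could be compared where the comparisons share no mouse. Of the 22 genes lower in Mu-RE mice of 26 weeks, 21 (95.5%) were also lower in RE-RE mice of 26 weeks, and these 21 made up 72.4% of the 29 in RE-RE mice. Over all tested genes the same shares were 76.1% and 66.9%. Of the 16 lower in Mu-RE mice of 10 weeks, 14 (87.5%) were also among the 26 lower in RE-RE mice of 10 weeks, or 53.8% of those, where the shares over all genes were 57.4% and 56.7%. Between the ages, 16 of 16 genes lower in Mu-RE mice of 10 weeks were also lower at 26 weeks, or 72.7% of the 22, against 63.3% and 65.6% over all genes. In RE-RE mice, 23 were lower at both ages, 79.3% of the 29 at 26 weeks and 88.5% of the 26 at 10 weeks, against 54.1% and 58.7% over all genes. Lower in all 4 comparisons were 14 members: Psma3, Psma6 and Psma7 of the alpha ring, the ATPases Psmc1, Psmc3, Psmc4 and Psmc6, the non-ATPases Psmd3, Psmd4, Psmd12, Psmd13 and Psmd14, and the chaperones Psmd10 and Psmg4. Of all 9862 tested genes 709 (7.19%) were lower in all 4. No beta-ring gene, activator or immunoproteasome subunit was among them, and 13 members were lower in none.

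**Figure D3:**
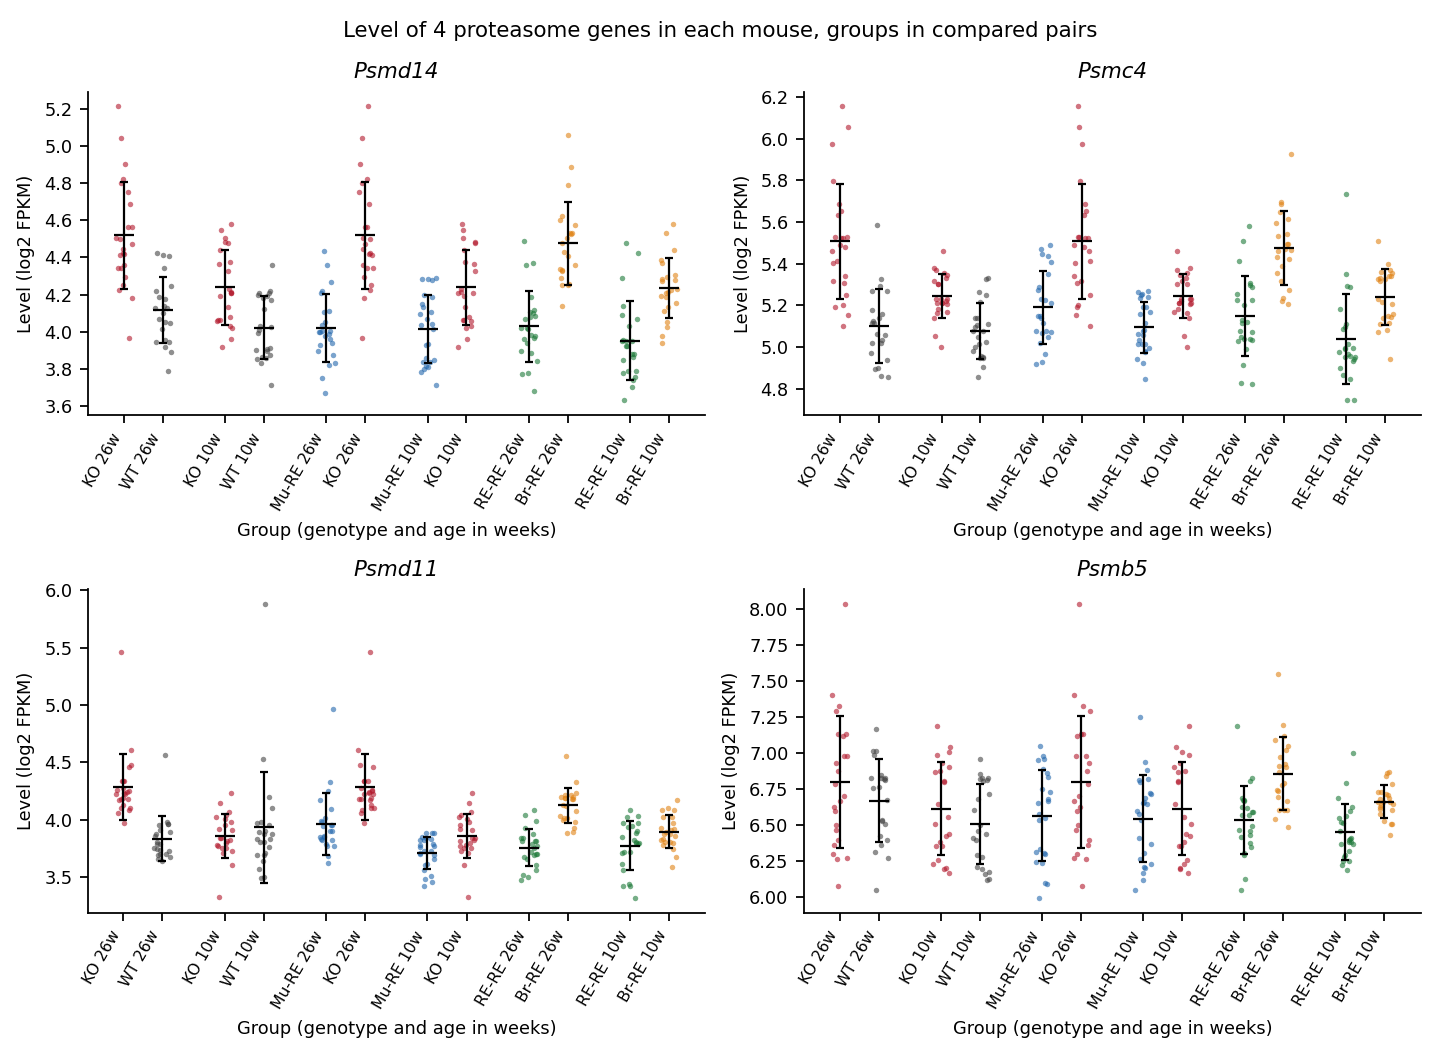
Level in log2 FPKM of the lid deubiquitinase Psmd14, the ATPase Psmc4, the lid scaffold Psmd11 and the proteolytic subunit Psmb5 in each mouse (points), with bars for the mean and SD, for 6 pairs of groups. Psmd14 and Psmc4 sit higher in KO than in WT mice, and lower in Mu-RE than in KO mice and in RE-RE than in Br-RE mice, with overlapping points in each pair.

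Because these genes moved together, the letters around their start sites are shown. Proteasome genes are known to be activated together by the factor Nfe2l1, which binds antioxidant response elements. The core of that element, TGANNNNGC, was searched on both strands in windows from 250 bases before to 50 bases after each RefSeq start (build GRCm38.p6), and 41 of the 48 members matched an entry, with 44 windows. It was found in 56.8% of the 44 windows and in 41.3% of all 32851 windows of the same length. By gene, 23 of 41 matched members held it, among them 8 of 11 genes of the 20S core and 6 of 14 of the 19S particle. The E-box CACGTG, which the Bmal1 protein binds with its partner, was found in 9.09% of the members' windows and 7.15% of all windows. The CCAAT box was found in 31.8% and 37.4%. A match is a description of the letters only.

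Among the 14 members lower in all 4 comparisons, Psma6, Psma7, Psmc6, Psmd12, Psmd13 and Psmg4 held a match. Psmc6, Psmd12 and Psmg4 had a pair of matches in 1 window. Those windows are printed 5′ to 3′ on the gene's strand, with the matches in capitals. The Psmc6 window is chr14:45329574-45329873 on the plus strand, with matches that begin at -241 and -227 from the start. The Psmd12 window is chr11:107479278-107479577 on the plus strand, with matches at -247 and -28. The Psmg4 window is chr13:34162714-34163013 on the plus strand, with matches at -27 and 21.
Psmc6: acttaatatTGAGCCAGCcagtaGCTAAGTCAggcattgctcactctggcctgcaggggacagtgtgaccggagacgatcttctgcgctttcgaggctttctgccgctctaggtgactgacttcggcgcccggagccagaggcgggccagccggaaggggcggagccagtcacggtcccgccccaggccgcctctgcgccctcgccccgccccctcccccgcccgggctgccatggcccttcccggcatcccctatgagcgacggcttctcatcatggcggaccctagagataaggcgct
Psmd12: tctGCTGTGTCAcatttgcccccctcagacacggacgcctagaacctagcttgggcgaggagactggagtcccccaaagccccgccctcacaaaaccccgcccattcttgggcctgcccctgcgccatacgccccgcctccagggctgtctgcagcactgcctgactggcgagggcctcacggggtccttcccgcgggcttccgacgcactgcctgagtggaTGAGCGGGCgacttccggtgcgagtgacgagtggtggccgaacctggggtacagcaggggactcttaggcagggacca
Psmg4: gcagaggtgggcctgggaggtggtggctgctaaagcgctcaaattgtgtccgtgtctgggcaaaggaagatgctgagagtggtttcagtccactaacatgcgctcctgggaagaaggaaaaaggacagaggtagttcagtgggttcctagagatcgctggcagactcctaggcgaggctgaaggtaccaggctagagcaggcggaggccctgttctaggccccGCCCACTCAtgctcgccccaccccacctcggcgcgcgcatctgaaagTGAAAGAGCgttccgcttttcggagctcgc
Psma3, Psmc1, Psmc4, Psmd4, Psmd10 and Psmd14 had no match in their windows, which says only that these letters are not there. The other members of this list, Psmc3 and Psmd3, had no window.

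Members were higher at 26 than at 10 weeks in both KO and WT mice. In WT mice of 26 weeks 23 genes were higher and 0 lower than in WT mice of 10 weeks (median 0.17), where 20.9% of all genes were higher and 16.1% lower. They were spread over the beta ring (6 of 7), the alpha ring (5 of 7), the ATPases (4 of 6), the non-ATPases (2 of 11), the 20S chaperones (3 of 3) and the activators (2 of 4). The largest were Psmg4 with 0.53 (SE 0.13, limma adjusted p = 0.0015), Psmb3 with 0.42 (SE 0.09, adjusted p = 0.000325) and the proteolytic subunits Psmb6 with 0.39 (SE 0.11, adjusted p = 0.00554) and Psmb7 with 0.34 (SE 0.11, adjusted p = 0.0132). Psmb7 had 6.88, 7.55 and 8.59 log2 FPKM in WT mice of 26 weeks and 6.71, 7.05 and 7.80 in those of 10 weeks, so the ranges overlapped widely. The length slope averaged -0.0328 at 26 weeks and 0.0294 at 10 weeks, the widest gap between compared groups here. With it as a covariate 3 members were higher in place of 23, and Psmb6 changed sign to -0.0038.

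In KO mice 22 genes were higher and 1 lower at 26 than at 10 weeks (median 0.22), where 14.9% of all genes were higher and 10.4% lower. Here the non-ATPases (9 of 11) and ATPases (5 of 6) held most of the rises, with 3 of 7 beta-ring and 2 of 7 alpha-ring genes. Psmd8 rose most, with 6.01, 6.70 and 7.91 log2 FPKM at 26 weeks against 5.44, 6.08 and 6.61 at 10 weeks, a difference of 0.65 (SE 0.10, limma adjusted p = 4.87e-06). The median mouse of 26 weeks was above the highest mouse of 10 weeks. Psmg4 rose by 0.49 (SE 0.14, limma adjusted p = 0.00637), Psmd11 by 0.43 (SE 0.07, adjusted p = 6.69e-06), and Psmb3 and Psmb1 by 0.33 each. Psme1 fell by 0.24 (SE 0.08, limma adjusted p = 0.0252). With the length slope as a covariate 29 were higher and 1 lower, and the slope averaged -0.0022 at 26 weeks and 0.0161 at 10 weeks. Markers of slow and IIA fibres, mainly Myh2, summed to a median of 434.5 FPKM at 26 weeks and 145.1 at 10 weeks. Fibroblast markers summed to 55.2 at 26 weeks and 121.3 at 10 weeks. The part of both marker sets in the result was not tested.

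Old wild-type mice differed little from WT mice of 26 weeks. Of the 45 genes 5 were higher and 3 lower (median -0.02), where 12.9% of all genes were higher and 11.2% lower, so the members' shares were near the background. The 5 that rose belong to the 19S particle and its assembly, namely Psmd2 (0.22, SE 0.04, limma adjusted p = 0.000166), Psmc4 (0.18, adjusted p = 0.0105), Psmd1 (0.15, adjusted p = 0.00932), the ubiquitin receptor Psmd4 (0.15, adjusted p = 0.034) and the chaperone Psmd9 (0.12, adjusted p = 0.0459). Psmd2 had 5.73, 6.21 and 6.52 log2 FPKM in old mice and 5.80, 6.02 and 6.20 in WT mice of 26 weeks, and its median in old mice was just above the highest WT mouse. The 3 that fell were Psmg4 (-0.35), Psme1 (-0.22) and the beta-ring gene Psmb2 (-0.16). The proteolytic subunits and Psmb8 did not pass the test in old mice. The length slope averaged -0.0112 in old mice and -0.0328 in WT mice of 26 weeks, and with it as a covariate 8 members were higher and 2 lower.

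Members were lower on time-restricted feeding in WT mice. The WT mice of 26 weeks on ALF used here are the same as in the KO, age and old comparisons. In WT mice on TRF 20 genes were lower and 2 higher than in WT mice on ALF (median -0.15), where 20.1% of all genes were lower and 20.9% higher. Lower were 6 of 7 alpha-ring, 4 of 7 beta-ring, 3 of 6 ATPase and 4 of 11 non-ATPase genes and 2 of 3 chaperones of 20S assembly. Psmd8 had 6.10, 6.31 and 7.15 log2 FPKM on TRF and 6.27, 6.68 and 7.29 on ALF, a difference of -0.33 (SE 0.06, limma adjusted p = 0.000141). The ATPase Psmc6 had 5.49, 5.82 and 6.49 on TRF and 5.80, 6.12 and 7.21 on ALF, a difference of -0.32 (SE 0.08, limma adjusted p = 0.00149). Psma3 had 3.97, 4.33 and 4.81 on TRF and 4.28, 4.64 and 5.59 on ALF, a difference of -0.31 (SE 0.07, limma adjusted p = 0.000905). Each of these pairs of ranges overlapped. Psmg4 fell by 0.38 and Psmg2 by 0.30. The inhibitor Psmf1 rose by 0.17 (SE 0.05, limma adjusted p = 0.00672), as did the base scaffold Psmd2 by 0.11 (SE 0.04, adjusted p = 0.0217). The length slope averaged 0.0159 on TRF and -0.0328 on ALF, and with it as a covariate 8 members were lower and 7 higher. With 1 mouse of each time point left out in turn, 8 to 21 members passed the test. Markers of slow and IIA fibres, mainly Myh2, summed to a median of 391.7 FPKM on TRF and 215.9 on ALF. Endothelial markers summed to 51.1 on TRF and 37.7 on ALF. The part of both marker sets in the result was not tested.

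In Mu-RE mice on TRF 9 genes were higher and 0 lower than on ALF (median 0.12), where 9.05% of all genes were higher and 7.87% lower. They included the beta-ring gene Psmb4 (0.37, SE 0.08, limma adjusted p = 0.00386), Psma5 (0.27, SE 0.08, adjusted p = 0.0126) and Psmd14 (0.23, SE 0.06, adjusted p = 0.00493). The length slope averaged -0.0212 on TRF and 0.012 on ALF, and with it as a covariate 4 members were higher. With 1 mouse of each time point left out in turn the count ran from 1 to 7. In KO mice on TRF 1 gene was higher and 4 were lower than on ALF (median 0.05), where 4.78% of all genes were higher and 9.38% lower. Psma5 was higher by 0.31 (SE 0.11, limma adjusted p = 0.0465). Psmd11 fell by 0.29, Psmd1 by 0.20, the nuclear activator Psme3 by 0.26 and the activator Psme4 by 0.21. In old mice 0 members passed the test by limma on either side (median -0.08; 0.122% of all genes were higher and 0.0203% lower), and 5 members passed an unadjusted p of 0.05.

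The feeding effect in KO minus that in WT mice was positive in 11 members and negative in 1 (median 0.22), where 11% of all genes were positive and 16.6% negative. The 11 held 5 alpha-ring and 3 beta-ring genes, with the largest gaps in Psma5 (0.50, SE 0.13, limma adjusted p = 0.00436), Psma3 (0.47, adjusted p = 0.00416), Psmb3 (0.46, adjusted p = 0.0315), Psmg2 (0.44, adjusted p = 0.00405) and Psma1 (0.44, adjusted p = 0.00441). The length slope averaged -0.0444 in KO mice on TRF, -0.0022 in KO mice on ALF, 0.0159 in WT mice on TRF and -0.0328 in WT mice on ALF. With it as a covariate 0 of the 12 were called by limma, and Psmb3 and Psmb6 changed sign to -0.03 and -0.08. Leaving out mouse 2 of each time point also left 0, and leaving out mouse 4 left 15. For old against younger WT mice the feeding effect differed in 2 members, Psmd8 (0.31, limma adjusted p = 0.0493) and Psmd11 (0.31, adjusted p = 0.0186), where 0.994% of all genes differed upward and 1.11% downward. Psmd8 was not called in 3 of 4 fits with 1 mouse of each time point left out, and Psmd11 in 2 of 4. Without the filter on low values, without the sex term or with a replicate block, 1 member was called.

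A daily rhythm was called in most members of the alpha ring and of the ATPases in WT mice on TRF. In these mice 21 of the 45 genes had a 24 h rhythm, where 37.8% of all genes did, so the members' share stood little above the background. By role these were 6 of 7 alpha-ring genes, 5 of 6 ATPases, 4 of 11 non-ATPases, 3 of 7 beta-ring genes, 2 of 3 chaperones of 19S assembly and 1 of 3 of 20S assembly, with 0 of 4 activators and 0 of 2 immunoproteasome genes. Their fitted peaks fell between ZT 13.8 and ZT 15.8 (median ZT 14.8), after lights off. The median amplitude over the 45 genes was 0.179 log2 units, a 1.28-fold change from trough to peak.

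Psmc6 (ENSMUSG00000021832, GRCm38 chromosome 14, 45329788 to 45349705, plus strand), an ATPase of the 19S base, had the smallest p. Its mean level in WT mice on TRF was 5.65, 5.64, 5.76, 6.16, 6.18 and 6.01 log2 FPKM at ZT 0, 4, 8, 12, 16 and 20. The step came between ZT 8 and ZT 12, with SDs of 0.07 and 0.10 there. Its amplitude was 0.31 (SE 0.05, limma adjusted p = 0.000352), a 1.55-fold change from trough to peak. In WT mice on ALF its means were 6.29, 6.23, 6.23, 6.03, 6.40 and 6.09 at the same times, with no step at that time.

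Psma3 followed the same course on TRF, with 4.09, 4.16, 4.17, 4.61, 4.58 and 4.36 log2 FPKM from ZT 0 to ZT 20 (amplitude 0.27, SE 0.05, limma adjusted p = 0.000386). Psmd10 had 2.20, 2.09, 2.22, 2.59, 2.63 and 2.36 (amplitude 0.28, SE 0.06, limma adjusted p = 0.00172). The lid subunit Psmd6 had an amplitude of 0.26 (limma adjusted p = 0.00212) and Psma5 one of 0.30 (adjusted p = 0.00213). In Psma3 and Psmd10 the means of ZT 12 to 20 were all above those of ZT 0 to 8. The length slope of these libraries moved in the opposite direction over the day: its mean was 0.0562, 0.0148, 0.0613, -0.0574, -0.0062 and 0.0270 at ZT 0 to 20. With it as a covariate 16 members had a rhythm in place of 21, and with 1 mouse of each time point left out in turn 8 to 17 had one.

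**Figure D4:**
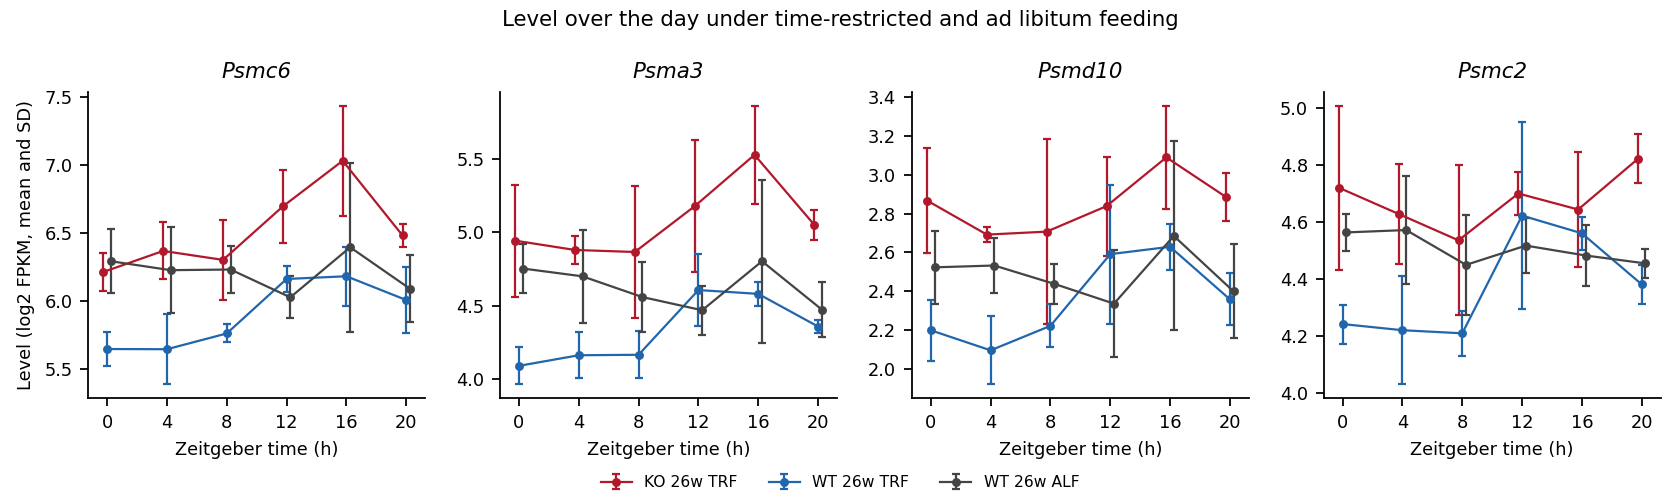
Mean level and SD over the mice of a time point, in log2 FPKM against zeitgeber time, of the ATPases Psmc6 and Psmc2, the alpha-ring gene Psma3 and the chaperone Psmd10 in KO and WT mice of 26 weeks on TRF and WT mice of 26 weeks on ALF. In WT mice on TRF each gene is higher from ZT 12 to ZT 20 than from ZT 0 to ZT 8.

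In KO mice on TRF 1 member was called, where 6.2% of all genes were. This was Psmc6, with means of 6.21, 6.37, 6.30, 6.70, 7.03 and 6.48 log2 FPKM at ZT 0 to 20, an amplitude of 0.34 (SE 0.09, limma adjusted p = 0.0464) and a peak at ZT 15, and 8 members passed an unadjusted p of 0.05. In Mu-RE mice on TRF 0 members were called by limma, where 6.97% of all genes were, and 2 passed an unadjusted p of 0.05. When each time point had its own mean in place of a cosine, 12 were called in Mu-RE mice on TRF and 0 in KO mice on TRF, where 20.6% and 1.15% of all genes were called in that fit. The fitted peaks, called or not, fell between ZT 12 and ZT 18 for 29 of 31 subunits of the 26S proteasome in Mu-RE mice on TRF and 28 of 31 in WT mice on TRF. Of all tested genes 31.5% had their fitted peak there in Mu-RE mice on TRF and 39.1% in WT mice on TRF. In KO mice on TRF 10 of 31 fell there (29% of all genes), and in WT mice of 26 weeks on ALF 1 of 31 (21.7% of all genes).

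In Br-RE mice of 10 weeks 13 members had a rhythm, where 29% of all genes did. The peaks of 11 of these lay between ZT 3.8 and ZT 5.1, in the day, while Psmd1 peaked at ZT 15 (amplitude 0.25, limma adjusted p = 0.00845) and Psme3 at ZT 16.6. Psma7 had an amplitude of 0.19 (limma adjusted p = 0.00957), Psmg2 of 0.22 (adjusted p = 0.0111) and Psmb10 of 0.43 (adjusted p = 0.0188). Here too the length slope moved over the day, with means of -0.0176, -0.0584, 0.0055, 0.0245, 0.0268 and 0.0315 at ZT 0 to 20. With it as a covariate 0 members were called by limma, and with 1 mouse of each time point left out in turn the count ran from 1 to 9.

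In the other 12 groups 0 members were called by limma. The share of all genes called there was at most 6.97%, in Mu-RE mice on TRF, followed by 5.84% in WT mice of 10 weeks, 5.71% in old mice on TRF, 1.41% in old mice on ALF and 1.04% in WT mice of 26 weeks. It was 0.76% and 0.588% in RE-RE mice of 26 and 10 weeks, 0.69% in Br-RE mice of 26 weeks, 0.071% in both KO and Mu-RE mice of 10 weeks and 0 in both of 26 weeks. At an unadjusted p of 0.05 the counts of members were 7 in Mu-RE mice of 10 weeks, 3 in Br-RE mice of 26 weeks, 2 in Mu-RE mice of 26 weeks, 2 in KO mice of 26 weeks, 2 in Mu-RE mice on TRF, 1 in RE-RE mice of 26 weeks and 1 in KO mice of 10 weeks. They were 0 in RE-RE mice of 10 weeks, in WT mice of either age on ALF and in old mice on either schedule. The median amplitude in WT mice of 10 weeks was 0.0615 log2 units, and in KO mice of 10 weeks 0.049.

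A difference in rhythm was called in 1 member. Between TRF and ALF in WT mice, the ATPase Psmc2 had a rhythm difference of 0.25 log2 units (limma adjusted p = 0.0412), where 3.92% of all genes had one, and 18 members passed an unadjusted p of 0.05. With a replicate block 0 members were called by limma, and with 1 mouse of each time point left out in turn 0 to 1. Its means were 4.24, 4.22, 4.21, 4.62, 4.56 and 4.38 log2 FPKM at ZT 0 to 20 on TRF, and 4.56, 4.57, 4.45, 4.52, 4.48 and 4.45 on ALF. The TRF values were below the ALF values at ZT 0 to 8 and near them from ZT 12 on. In the other 7 rhythm comparisons 0 members were called by limma, and between 0 and 8 passed an unadjusted p of 0.05. The share of all genes called was 0.172% and 0.517% in KO minus WT at 26 and 10 weeks, 0 and 0.913% in Br-RE minus KO, 0.0913% and 0.152% in RE-RE minus Br-RE at those ages, and 0 in TRF minus ALF in old mice.

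**Figure D5:**
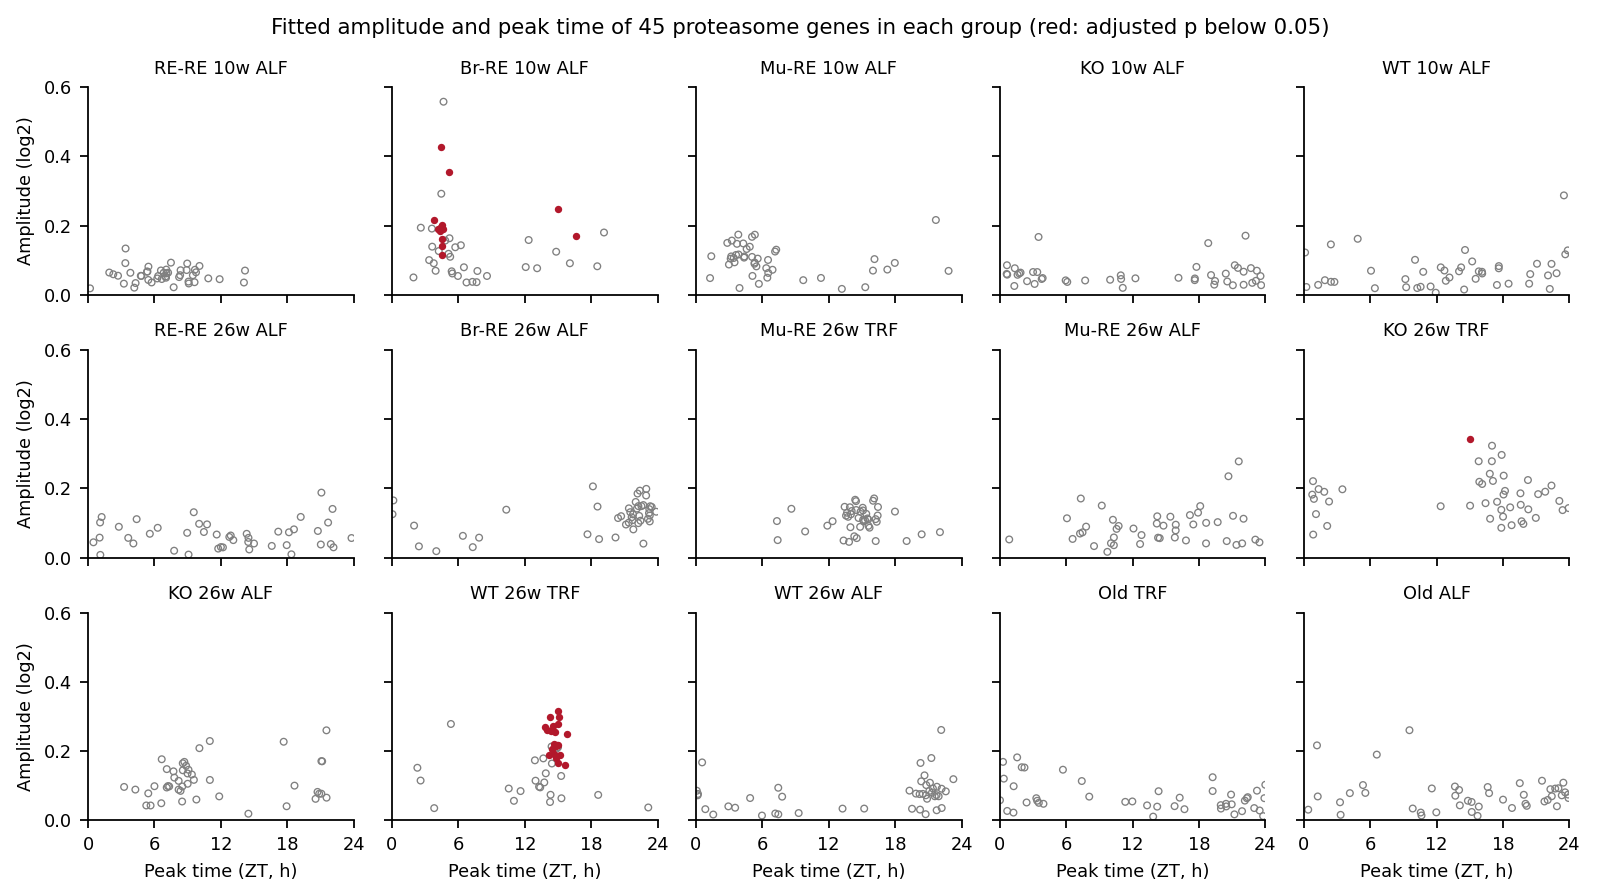
Fitted amplitude in log2 units against fitted peak time in ZT hours of 45 proteasome genes in each of the 15 groups, with called rhythms (limma adjusted p under 0.05) in red. The 21 called genes of WT mice on TRF gather between ZT 13.8 and ZT 15.8, and 11 of the 13 of Br-RE mice of 10 weeks between ZT 3.8 and ZT 5.1.

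Genes that work with the proteasome are given by list, to be read against the shares of all genes called: 24.4% higher and 22% lower in KO minus WT at 26 weeks, 20.3% and 21.6% at 10 weeks, 17.3% and 16.6% in Mu-RE minus KO at 26 weeks, and 16.5% and 18.9% in RE-RE minus Br-RE at 26 weeks. Of 12 ubiquitin shuttles and unfoldases 8 were higher and 0 lower in KO than in WT mice of 26 weeks, among them Vcp, the segregase that extracts ubiquitinated proteins (0.43, SE 0.04), and its cofactor Nploc4 (0.38, SE 0.06). Vcp was lower by 0.27 (SE 0.04) in Mu-RE than in KO mice and by 0.34 (SE 0.04) in RE-RE than in Br-RE mice of 26 weeks, where 8 of the 12 were lower and 1 higher in each. Of 12 proteasome-associated factors 3 were higher and 0 lower in KO mice of 26 weeks, namely Midn, which carries proteins to the proteasome (0.36), the deubiquitinase Uchl5 (0.33) and Txnl1 (0.24), a share near the background. In RE-RE against Br-RE mice of 26 weeks 6 of the 12 were lower, with Midn at -0.48, the ubiquitin receptor Adrm1 at -0.36 (SE 0.07) and the assembly factor Pomp at -0.28.

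Nfe2l1, the transcription factor that raises proteasome genes when proteasome activity drops, was higher by 0.47 (SE 0.07) in KO than in WT mice of 26 weeks. At 10 weeks its KO minus WT difference was -0.21 (SE 0.07). It was lower in RE-RE than in Br-RE mice of 26 weeks (-0.24, SE 0.07). In Mu-RE minus KO at 26 weeks it differed by -0.03 (SE 0.06, limma adjusted p = 0.723) and did not pass the test. Of the 11 regulators in its list 3 were higher and 1 lower in KO mice of 26 weeks, and 2 higher and 3 lower at 10 weeks. Of 19 genes listed with the E3 ligases of muscle 8 were higher and 1 lower in KO mice of 26 weeks. The higher genes included the Kelch protein Klhl40, not itself a ligase, at 0.62 (SE 0.12), Fbxo30 at 0.50 (SE 0.12) and Mdm2 at 0.45 (SE 0.05). At 10 weeks 5 were higher and 5 lower, with Trim63, the atrophy ligase MuRF, at 0.42 (SE 0.12).

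In old mice 3 of the 19 genes in the ligase list were higher and 0 lower than in WT mice of 26 weeks. These were Fbxo21 at 0.44 (SE 0.06), the atrophy ligase Fbxo32 at 0.41 (SE 0.12) and Trim63 at 0.33 (SE 0.10). Of all genes 12.9% were higher and 11.2% lower there, so the share of that list that was higher was near the background. Of 10 genes of antigen presentation and interferon response, which share inducers with Psmb8 and Psmb9, 6 were higher and 0 lower in KO mice of 10 weeks, with Isg15 at 0.44 (SE 0.14) and H2-K1 at 0.41 (SE 0.08). At 26 weeks 2 were higher and 1 lower, the interferon-induced Ifit3 (-1.38, SE 0.16). In WT mice on TRF against ALF 7 of the 12 associated factors were lower and 0 higher, with the 19S subunit Sem1 at -0.53 (SE 0.12) and Pomp at -0.37 (SE 0.08), where 20.1% of all genes were lower and 20.9% higher. In WT mice on TRF Fbxo32 had a rhythm of amplitude 0.74, well above the median of 0.179 among the members.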

How the data were processed

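RNA from whole tibialis anterior of 352 mice was sequenced, with 1 library per mouse. The deposited values of 14413 genes are log2 FPKM, as the authors named the table. The submitters' processing notes name HISAT2 2.1.0 on the GRCm38 build and featureCounts 1.6.2, beside edgeR 3.30.0 and limma 3.44.1, with read checks and trimming by Trim Galore 0.5.0 and FastQC 0.11.8. The sources used here do not give whether counting used strand. The mean of females equalled that of males in every gene to within 1e-05 in 259 libraries, in the 47 libraries of RE-RE or Br-RE mice at 10 weeks and in the 46 at 26 weeks. Each of those sets also had the gene means of the other 71 or 140 libraries of its age. The sources used here do not give the step that made this so. Sexes were therefore not set against each other, and levels of Br-RE mice were set only against those of RE-RE mice; rhythms, which do not depend on the centring, were also set against those of KO mice. Depth was estimated from the spacing of low values, of which 90.1% to a median of 94.7% lay within 0.1 of a whole read; the deposited values are not counts and were not tested as counts. Within groups, r between libraries was 0.876 to 0.991, and the closest pair differed by an SD of 0.254, so none was a duplicate.

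The 9862 genes whose mean log2 level reached 0 were kept. Models in limma 3.58.1 (R 4.3.3, package data.table, version 1.17.8; trend and robust variance) fitted each group's mean level and its 24 h cosine and sine terms, beside sex. Level differences were two-sided moderated tests and rhythms F tests of cosine and sine, fitted on the groups compared. Benjamini-Hochberg adjustment ran over all 9862 genes, with calls at 0.05. Summaries were made in Python 3.11.15 (numpy 2.4.6, pandas 2.3.3, matplotlib 3.10.9). In simulated data made from the KO and WT libraries of 10 weeks (9862 genes), the level test recovered 69% of genes changed by 0.3 log2 units and 99% of those changed by 1. The rhythm test recovered 75% and 98% at the same sizes, and the test of a rhythm difference 45% and 95%, with 7.89% of its calls false. The noise was drawn for each gene on its own, with the spread of the KO mice. It lacked the variation that the members share with the length slope, so these rates need not hold for them. Replicates are mice of 1 group. The p-values set each effect against the spread between mice that the group, time and sex terms leave.

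Members and lists were chosen with earlier results of these data known. In each comparison of level, the text may name the proteolytic and immunoproteasome subunits, activators and inhibitor, the up to 5 called members with the largest difference per direction, and for rhythms the up to 5 with the smallest p; from pathway lists up to 4 called genes with the largest difference. Psmd14, Psmc4, Psmd11, Psmb5 and the 14 members lower in 4 comparisons were also named where they fall outside that rule, after their values were seen. Alternatives were no filter on low values, a pseudocount of 1, equal library medians, the length slope as a covariate, no sex term, a replicate block, each time point with its own mean, and 1 mouse per time point left out in turn. Leaving out the 3 libraries whose length slope lay over 3 scaled median absolute deviations from their group was added after seeing the data.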

Additional observations from a re-analysis of the deposited data

Results flagged for a closer look

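These results stand out because an effect differed between groups by a test of the difference itself. The feeding effect (TRF minus ALF) in KO mice minus that in WT mice was called for Psma5 at 0.50, Psma3 at 0.47, Psmb3 at 0.46, Psmb6 at 0.44, Psmg2 at 0.44, Psma1 at 0.44, Psma4 at 0.42, Psmc6 at 0.40, Psma2 at 0.38, Psmd6 at 0.35, Psmb2 at 0.30 and Psmd1 at -0.20 log2 units. The genes of the 20S core in this list moved with the length slope of the libraries, and its part in the result was not tested beyond the fit with the slope as a covariate, in which 0 were called by limma.

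The feeding effect in old mice minus that in younger WT mice was called for the 19S lid subunits Psmd11 at 0.31 and Psmd8 at 0.31 log2 units. With the length slope as a covariate they were 0.33 and 0.27 and were still called. With 1 mouse of each time point left out in turn, Psmd11 was not called in 2 of 4 fits and Psmd8 in 3 of 4. The replicate block, no filter on low values and no sex term each left 1 member.

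The KO effect at 26 weeks minus that at 10 weeks was called for Psmd11 at 0.54, Psmd8 at 0.49, Psmd1 at 0.26, Psmc4 at 0.24, Psmd2 at 0.22, Psmd7 at 0.20 and Psme1 at -0.45 log2 units. Psmd11 and Psme1 were called in each of the 4 fits that left out 1 mouse of each time point, at 0.44 to 0.66 and -0.53 to -0.39. Psmd2 was at 0.18 to 0.26 and Psmc4 at 0.18 to 0.28 in those fits and were not called in 3 of 4.

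Between TRF and ALF in WT mice the rhythm of the ATPase Psmc2 differed by 0.25 log2 units. With a replicate block 0 members were called by limma, and with 1 mouse of each time point left out in turn 0 to 1.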

How the results depend on the processing

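Of 39 counts of members, a pseudocount of 1 and equal library medians moved none by over 1.5 times. With the length slope as a covariate, 9 moved: to 30 in KO minus WT at 26 weeks, 26 in Mu-RE minus KO at 10 weeks, 16 in RE-RE minus Br-RE at 10 weeks, 3 in WT mice of 26 minus 10 weeks, 4 in TRF minus ALF in Mu-RE mice, 0 in the feeding effect of KO minus WT mice, 14 in the KO effect at 26 minus 10 weeks, and rhythms to 0 in Br-RE and 1 in WT mice of 10 weeks. In that fit Psmb6 changed sign in the WT age comparison (-0.0038), as did Psmb3 (-0.0338) and Psmb6 (-0.0755) in the feeding effect of KO minus WT mice. Without the 3 libraries far in length slope, 26 members differed in that feeding effect. Without the filter, the feeding effect of old minus younger WT mice was called in 1 member and rhythms in 8 in Br-RE mice of 10 weeks and 0 in KO mice on TRF. Without the sex term these were 1 for the old feeding effect and 0 for KO mice on TRF. With each time point's own mean, rhythms numbered 3 in Br-RE mice of 10 weeks, 12 in Mu-RE mice on TRF and 0 in KO mice on TRF.

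Whether the replicate numbers pair the mice was not settled. Same-numbered mice had a median correlation of -0.05 to 0.16 over 13 comparisons, with single pairs from -0.48 to 0.62. Pairs above 0.1 were most frequent in TRF minus ALF in old mice (18 of 24). Of these 24 mice, 17 correlated best with their own number among the 4 mice of the time point. In Mu-RE minus KO at 10 weeks 15 of 23 were above 0.1, and 11 of 23 were best with their own number. In KO minus WT at 10 weeks these were 11 and 10 of 22. A pairing or a batch shared by number was not tested beyond the fit with a replicate block. With a replicate block, KO minus WT at 10 weeks gave 25 members, the old feeding effect 1 and the rhythm difference of TRF minus ALF in WT mice 0, and 21 other counts stayed within 1.5 times.

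Leaving out 1 mouse per time point in turn gave 14 to 17 members in KO minus WT at 26 weeks and 12 to 14 at 10 weeks, 13 to 21 in Mu-RE minus KO at 26 weeks and 11 to 17 at 10 weeks, and 20 to 35 in RE-RE minus Br-RE at 26 weeks and 10 to 32 at 10 weeks. It gave 14 to 25 for age in KO, 9 to 22 for age in WT and 3 to 9 for old mice. TRF minus ALF ran 8 to 21 in WT, 1 to 7 in Mu-RE, 0 to 5 in KO and 0 to 0 in old mice. The KO effect by age ran 2 to 7, the feeding effect of KO minus WT 0 to 15 and that of old minus WT 0 to 2. Rhythms ran 8 to 17 in WT mice on TRF, 1 to 9 in Br-RE mice of 10 weeks and 0 to 0 in KO mice on TRF, and rhythm differences 0 to 1 between TRF and ALF in WT mice and 0 to 1 between Br-RE and KO mice of 10 weeks. The cause of these moves was not tested. Depth limits Psmb9, Psmg3 and Psmc3ip, below 1 FPKM.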
